A study of Mus musculus with 29 samples.

Results

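The FoxO transcription factors and the ubiquitin ligases of muscle atrophy were followed in the tibialis anterior (TA), a fast leg muscle, of ageing mice. The set comprised 9 genes, chosen by symbol, of the 22537 in the count table. These were the 3 factors Foxo1, Foxo3 and Foxo4 and the 6 ligase genes Fbxo32, Trim63, Fbxo30, Fbxo21, Fbxo40 and Trim32, and all 9 were present and passed the filter on low counts. All mice were male C57BL/6 animals from the aging rodent colony of the National Institute on Aging with no treatment and no engineered allele named in the labels. Poly-A RNA was sequenced from 7 mice at 6m (6 months), 7 at 24m and 8 at 28m, which the labels give as 28+ months. A first NextSeq550 run covered the 6m and 24m groups. A second covered the 28m group and, prepared afresh, the 7 animals of the 6m group, which brought the number of libraries to 29. Each older age was compared with the 6m libraries of its own run, because age and run cannot be told apart otherwise. The whole muscle was used, so a lower value can mean fewer cells of a type or less RNA per cell, and these cannot be told apart.

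FoxO factors are transcription factors that insulin and IGF-1 signalling hold in the cytoplasm, through phosphorylation by Akt. When that signal falls they enter the nucleus, where they switch on genes of autophagy and of the ubiquitin-proteasome system. Ubiquitin ligases choose which proteins are tagged for the proteasome, and several are induced when muscle wastes after fasting, disuse or loss of its nerve. Among the ligases, Fbxo32 encodes atrogin-1 (MAFbx), the substrate-binding part of an SCF complex, and Trim63 encodes MuRF1, a RING ligase that acts on myosin and other sarcomere proteins. Fbxo30 encodes MUSA1 and Fbxo21 encodes SMART, F-box proteins known as FoxO targets in wasting muscle. Fbxo40 encodes a muscle F-box protein that acts on the insulin receptor substrate IRS1, and Trim32 encodes a ligase that acts on desmin and is mutated in a form of limb-girdle muscular dystrophy.

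RefSeq promoter windows of GRCm38.p6 were used for 7 of the 9 genes, all but Foxo4 and Fbxo32. The 250 bases upstream of the start were searched on both strands for the FoxO core GTAAACA and for the palindromic E-box CAGCTG, which do not overlap each other as motifs. Trim63 was the 1 gene of the 7 whose window held the FoxO core, which 3.17% of 32851 promoter windows held. It lay on the strand opposite to the gene, as TGTTTAC, and started 194 bases upstream. The window of Fbxo40 is shown beside it because Fbxo40 had, with Foxo3, the largest change at 28m when all libraries were used. That window held 2 E-boxes and no FoxO core, a second RefSeq window of Fbxo40 held 1 E-box, and the windows of Trim63 and Trim32 also held 1 each. An E-box was present in 13% of the promoter windows. Both are written 5′ to 3′ on the strand of the gene, with the FoxO core in capitals.
Trim63, chr4:134314870-134315119 (GRCm38.p6, + strand): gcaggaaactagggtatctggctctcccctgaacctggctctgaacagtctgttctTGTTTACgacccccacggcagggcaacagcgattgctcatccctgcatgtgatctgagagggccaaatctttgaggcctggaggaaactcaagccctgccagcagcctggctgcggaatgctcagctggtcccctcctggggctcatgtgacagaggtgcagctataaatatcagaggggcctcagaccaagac
Fbxo40, chr16:36990468-36990717 (GRCm38.p6, - strand): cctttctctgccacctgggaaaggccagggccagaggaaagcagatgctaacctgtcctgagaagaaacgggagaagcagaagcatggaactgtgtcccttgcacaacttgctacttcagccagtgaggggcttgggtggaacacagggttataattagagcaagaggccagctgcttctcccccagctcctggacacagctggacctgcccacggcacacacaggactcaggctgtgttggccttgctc
A match is a stretch of letters and not a measured binding site.

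Total counts per library were between 17633475 and 33499162. Myofibre genes were abundant in every library. CPM (counts scaled to the library size, with TMM over all 29 libraries) was summed over 8 myofibre markers. The sum was between 157117 and 188802 at 28m and between 164777 and 179077 in the 6m libraries of the same run. At 24m it ranged more widely, from 117687 to 189678, against 159570 to 177963 at 6m in the first run. Libraries differed in how the counts followed transcript length. For each library, the deviation of log2 CPM from the mean of all libraries was regressed on log2 exonic length over 11906 genes, and this slope was -0.147 or lower in 7 libraries and -0.0306 or higher in the other 22. The 7 low-slope libraries were 28m replicates 1, 2, 3, 5 and 7, 24m replicate 4, and the first-run library of 6m replicate 4. The split was set at a slope of -0.1 after the data had been seen, from all genes and not from the 9 genes. In low-slope libraries long transcripts counted for less, so each 28m result of the 9 genes is given with and without them, which leaves 3 mice at 28m against 7 at 6m. The slopes of the age groups did not overlap, at 0.110 to 0.151 in the second-run 6m libraries and -0.382 to 0.0730 at 28m. Leaving out the low-slope libraries therefore does not separate age from the length slope. A fit with the slope as a covariate cannot separate them either.

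At 28m, Foxo3, Foxo4, Fbxo40 and Trim32 were lower than at 6m, and no gene of the set was called higher (edgeR quasi-likelihood test, Benjamini-Hochberg adjustment, adjusted p under 0.05). The background was large, since 47.3% of the 12994 genes tested were called in this comparison, 24.3% higher and 22.9% lower. The median log2 fold change was -0.25 over the 9 genes and 0.01 over all genes tested. Without the low-slope libraries 20.3% of 13221 genes were called, 10.5% higher and 9.77% lower, and of the set Fbxo40 was called lower and Fbxo21 higher. The median over the 9 genes was then -0.03. Foxo3, Fbxo40 and Trim32 lay close to the threshold, and their calls held in 4, 6 and 7 of the 15 fits that left out 1 library, with adjusted p up to 0.0648, 0.0633 and 0.0694. At 24m, 0.0840% of 13103 genes were called, with 1546 at an unadjusted p under 0.05, and none of the 9 genes was called with edgeR, DESeq2 or limma-voom. The calls over all genes were 11 with edgeR, against 215 with DESeq2, 12 with limma-voom, 121 with edgeR without the low-slope libraries and 30 without 24m replicate 4 alone. Foxo1 and Trim32 had an unadjusted p under 0.05 at 24m.

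**Figure D1:**
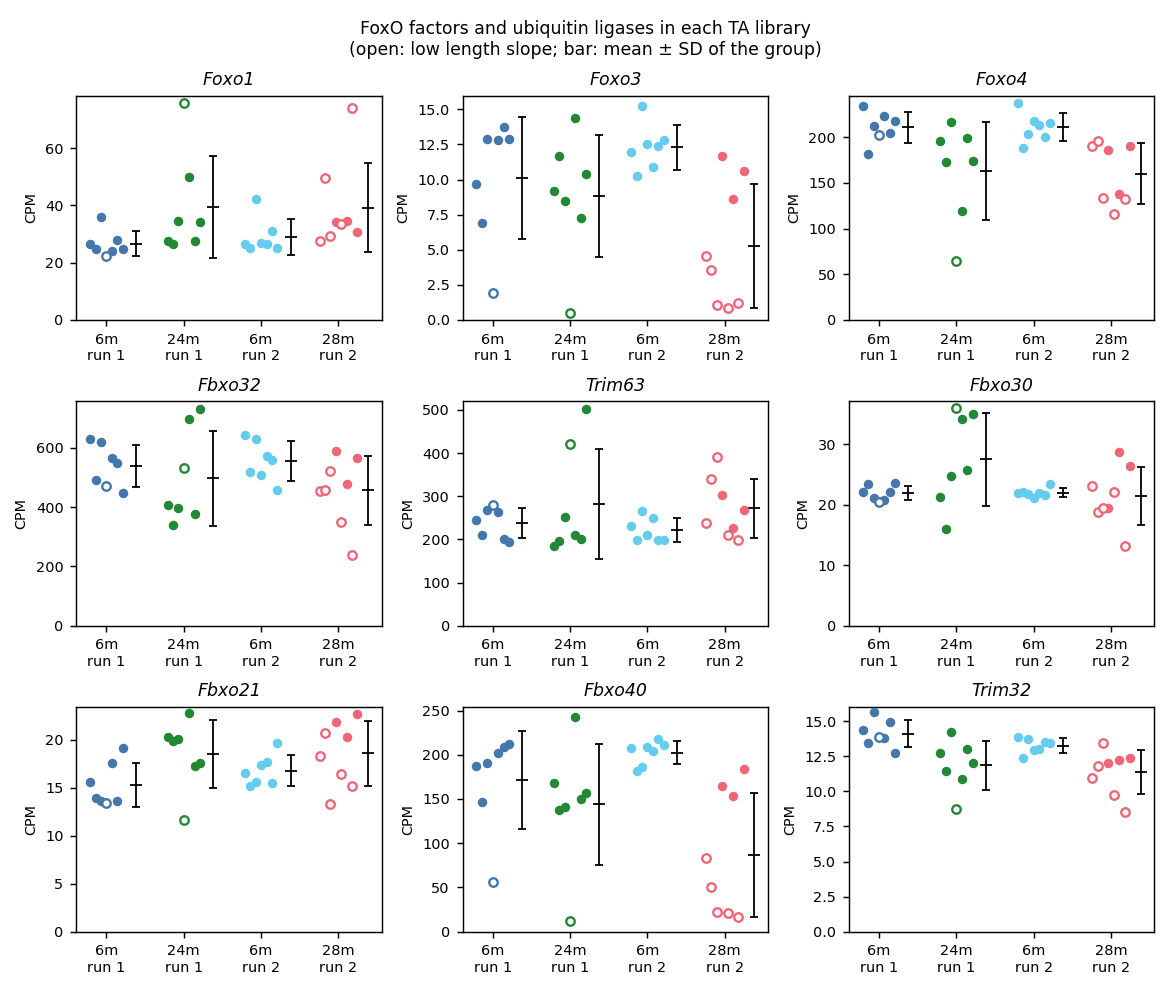
CPM of each gene (vertical axes, from 0) in each library, grouped by age and run, with open points for the 7 low-slope libraries and a black bar for the mean ± SD of the group (n = 7, 7, 7 and 8). The open points of Foxo3 and Fbxo40 lie below every filled point of the same gene, while those of the other 7 genes mix with the filled points. The share of all genes that separate in this way was not counted.

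Foxo3, a factor known to drive both atrogin-1 and autophagy genes, lies at chr10:42181841-42276755 (GRCm38, - strand) with 7571 exonic bases. In the second run its CPM in the 7 mice at 6m was 10.2 at the lowest, 12.4 at the median and 15.2 at the highest. At 28m it was 4.55, 3.59, 1.08, 11.7, 0.845, 8.62, 1.20 and 10.6 in replicates 1 to 8. The groups overlapped, since 6 of the 8 older mice were below every 6m mouse and 2 were not, and 5 of those 6 were the low-slope libraries. Counts of Foxo3 were low, between 22 and 284 per library at 28m, which widens the error of single values. Its log2 fold change was -1.24 ± 0.47 (SE, edgeR adjusted p = 0.038). Without the low-slope libraries it was -0.25 ± 0.13 (adjusted p = 0.179). With the length slope as a covariate Foxo3 was at 0.56 (adjusted p = 0.15), the opposite sign. That value is extrapolated, because the slopes of the age groups do not overlap. Against the 6m libraries of the other run Foxo3 was at -0.95 (adjusted p = 0.182). With a trend on length and GC content removed it kept its call, at -1.02 (adjusted p = 0.0487). In the first run Foxo3 had a median of 12.8 at 6m (1.90 to 13.8) and 9.21 at 24m (0.524 to 14.4), and both lowest values came from low-slope libraries. The difference at 24m was -0.20 ± 0.49 (adjusted p = 0.867). It was 0.00888 without 24m replicate 4, and -0.17 ± 0.19 without the low-slope libraries of both ages (adjusted p = 0.672).

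Foxo4 was called lower at 28m in the fit of all libraries and in each of the 15 fits that left out 1 library, but not without the low-slope libraries or with the length slope as a covariate. The gene lies at chrX:101254528-101260873 (GRCm38, + strand) with 3485 exonic bases. Its CPM at 6m was 188 at the lowest, 213 at the median and 237 at the highest. At 28m it was 190.0, 196, 133, 186, 116, 138, 132 and 189.7 in replicates 1 to 8, so 5 of 8 mice lay below every 6m mouse and the others overlapped the lower part of the 6m range. The age difference on the log2 scale was -0.42 ± 0.12 (edgeR adjusted p = 0.00991), and without the low-slope libraries it was -0.30 ± 0.10 (adjusted p = 0.0596). With the slope covariate it was -0.11 (adjusted p = 0.703). The 3 remaining mice averaged 171 ± 29.1 CPM (SD, n = 3) against 211 ± 15.3 at 6m (n = 7). At 24m the mean was 163 ± 53.2 CPM (n = 7) against 211 ± 17.03 at 6m in that run, and 4 of 7 mice lay below every 6m mouse. That difference of -0.38 ± 0.21 on the log2 scale did not pass the threshold (adjusted p = 0.465), and it was -0.24 without 24m replicate 4, a low-slope library.

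Foxo1, the factor also known for its part in muscle glucose use, lies at chr3:52268336-52353221 (GRCm38, + strand) with 8665 exonic bases. Its exons overlap an antisense transcript, Gm20402, and the strand setting of the counting is not given in the sources used here, so reads of the 2 cannot be told apart. Foxo1 had a CPM of 25.1 at the lowest, 26.5 at the median and 42.3 at the highest at 6m, and of 27.7, 33.9 and 74.1 at 28m. Replicates 2 and 7 at 28m, with 49.7 and 74.1, lay above every 6m mouse and were both low-slope libraries, and the other 6 were inside the 6m range. The log2 fold change was 0.41 ± 0.20 (edgeR adjusted p = 0.0977) and 0.19 ± 0.15 without the low-slope libraries (adjusted p = 0.37). With the length and GC trend removed Foxo1 was called higher, at 0.79 (adjusted p = 0.0149), and with the length slope as a covariate it was at -0.0112 (adjusted p = 0.986). Single mice moved the value, which was 0.52 without 6m replicate 3 (adjusted p = 0.0428) and 0.22 without 28m replicate 7 (adjusted p = 0.217). At 24m the value was 0.55 ± 0.22 (adjusted p = 0.376), and replicates 4 and 5, with 75.6 and 50.1 CPM, lay above every 6m mouse. Without 24m replicate 4, a low-slope library, it was 0.32. Foxo6, the remaining family member, had 9.01 ± 2.58 CPM at 6m (n = 7) and 6.78 ± 2.76 at 28m (n = 8), a log2 difference of -0.43 ± 0.23 (adjusted p = 0.128), and of -0.20 without the low-slope libraries (adjusted p = 0.672).

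The 2 classical atrogenes did not pass the test at either age. Fbxo32 (atrogin-1) lies at chr15:58175879-58214932 (GRCm38, - strand) with 6976 exonic bases, and its exons overlap the antisense transcript Gm15943. Its CPM at 6m was 458 at the lowest, 559 at the median and 643 at the highest. At 28m it was 455, 456, 519.7, 589, 349, 477, 237 and 567 in replicates 1 to 8, and the 4 mice below every 6m mouse were all low-slope libraries. Its log2 fold change was -0.31 ± 0.16 (edgeR adjusted p = 0.113), and -0.03 ± 0.11 without the low-slope libraries (adjusted p = 0.866). With the slope covariate it was 0.11 (adjusted p = 0.774). The 24m mice were spread more widely than the 6m mice, at 407, 339, 396, 531, 697, 376 and 731 CPM in replicates 1 to 7. There 4 of 7 lay below and 2 above every 6m mouse, and the mean of 497 ± 160.0 differed from 538 ± 71.7 at 6m by -0.13 ± 0.18 on the log2 scale (adjusted p = 0.752). Leaving out 1 library moved it between -0.24 (without 24m replicate 7) and -0.06 (without 24m replicate 2).

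Trim63 (MuRF1), the gene whose promoter window held the FoxO core, lies at chr4:134315120-134329629 (GRCm38, + strand) with 2842 exonic bases. Its CPM at 6m was 199 at the lowest, 211 at the median and 267 at the highest, and at 28m it was 237, 339, 392, 302, 209.5, 227, 199 and 269 in replicates 1 to 8. The groups overlapped, with 4 of the 8 older mice above every 6m mouse and none below. The age difference on the log2 scale was 0.26 ± 0.14 with all libraries (edgeR adjusted p = 0.13) and 0.26 ± 0.12 without the low-slope libraries (adjusted p = 0.137). With the length and GC trend removed it was 0.12 (adjusted p = 0.554), and with the slope covariate 0.25 (adjusted p = 0.501). At 24m, 5 mice had between 184 and 252 CPM, and replicates 4 and 7 had 421 and 502, above the highest 6m mouse of that run at 280.0. Replicate 4 is a low-slope library. The log2 fold change was 0.23 ± 0.22 (adjusted p = 0.647), and 0.0339 without replicate 7.

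Fbxo40, which is known for its restriction to muscle, lies at chr16:36963460-36990467 (GRCm38, - strand) with 5517 exonic bases. Its CPM in the 6m mice of the second run was 182 at the lowest, 207 at the median and 218 at the highest. At 28m it was 83.3, 50.8, 21.97, 164, 21.3, 153, 16.2 and 184 in replicates 1 to 8, and 7 of 8 mice lay below every 6m mouse. The 5 low-slope libraries held the 5 lowest values. Its log2 fold change was -1.24 ± 0.46 (edgeR adjusted p = 0.0359), a ratio of 0.423. Without the low-slope libraries it was -0.28 ± 0.08 (adjusted p = 0.0277), a ratio of 0.823, a smaller size that passed the threshold with the 3 remaining mice. With the length slope as a covariate Fbxo40 was at 0.53 (adjusted p = 0.0945), the opposite sign. That value is extrapolated, because the slopes of the age groups do not overlap. Against the 6m libraries of the other run Fbxo40 was at -0.999 (adjusted p = 0.137). It kept its call with the length and GC trend removed, at -1.14 (adjusted p = 0.0428). At 24m, 6 mice had between 137 and 242 CPM and replicate 4, a low-slope library, had 11.8. The difference from 6m was -0.27 ± 0.43 (adjusted p = 0.794). It was -0.06 without replicate 4 and -0.43 without replicate 5. Without the low-slope libraries of both ages it was -0.21 ± 0.14 (adjusted p = 0.444).

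Fbxo21 (SMART) lies at chr5:117976730-118010201 (GRCm38, + strand) with 5545 exonic bases. Its CPM at 6m was 15.2 at the lowest, 16.5 at the median and 19.7 at the highest, and at 28m it was 18.3, 20.7, 13.3, 21.8, 16.4, 20.3, 15.2 and 22.7 in replicates 1 to 8. With all libraries the log2 fold change was 0.12 ± 0.12 (edgeR adjusted p = 0.387). Leaving out 1 library moved it between 0.07 (without 28m replicate 8) and 0.19 (without 28m replicate 3). In all libraries Fbxo21 was called higher with the length and GC trend removed, at 0.31 (adjusted p = 0.0127). It was also called with the slope covariate, at 0.53 (adjusted p = 0.0163), a value extrapolated between slopes that do not overlap. In the 3 mice at 28m outside the low-slope set, with 20.3 to 22.7 CPM, every value lay above every 6m mouse, as it did higher for 10.1% of the genes tested. The log2 fold change there was 0.37 ± 0.09 (adjusted p = 0.0155), a ratio of 1.29. At 24m, 4 of 7 mice lay above every 6m mouse and the low-slope replicate 4 lay below, with a log2 fold change of 0.27 ± 0.14 (adjusted p = 0.46). It was 0.33 ± 0.10 without the low-slope libraries (adjusted p = 0.125).

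Fbxo30 (MUSA1) lies at chr10:11281330-11298052 (GRCm38, + strand) with 5197 exonic bases. At 6m it was held within a narrow range in both runs, from 20.5 to 23.6 CPM in the first and from 21.0 to 23.4 in the second. At 28m it was 23.1, 18.9, 19.5, 19.4, 22.1, 28.7, 13.2 and 26.4 in replicates 1 to 8, with 4 mice below and 2 above every 6m mouse. The age difference on the log2 scale was -0.06 ± 0.13 (edgeR adjusted p = 0.688) and took the other sign, 0.17 ± 0.10, without the low-slope libraries (adjusted p = 0.229) and 0.30 with the slope covariate (adjusted p = 0.231). At 24m it was 21.3, 16.0, 24.7, 35.9, 34.2, 25.8 and 34.9 in replicates 1 to 7, and 5 of 7 mice lay above every 6m mouse. The log2 fold change was 0.31 ± 0.15 (adjusted p = 0.439). Replicate 4, the highest, is a low-slope library, and without the low-slope libraries the value was 0.23 ± 0.16 (adjusted p = 0.462).

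Trim32 lies at chr4:65604986-65616238 (GRCm38, + strand) with 3229 exonic bases, inside the span of Astn2 on the opposite strand but with no shared exon. Its CPM at 6m was 12.3 at the lowest, 13.4 at the median and 13.9 at the highest, and at 28m it was 10.9, 11.8, 13.4, 12.01, 9.72, 12.2, 8.51 and 12.4 in replicates 1 to 8. The ranges overlapped, and 6 of the 8 older mice were below every 6m mouse. Its log2 fold change was -0.25 ± 0.09 (edgeR adjusted p = 0.0352), and -0.12 ± 0.07 without the low-slope libraries (adjusted p = 0.227). With the slope covariate it was -0.08 (adjusted p = 0.733), and with no filter on low counts it also missed the threshold (adjusted p = 0.0588). At 24m the value was close in size, -0.26 ± 0.11, and not past the threshold (adjusted p = 0.389), with 5 of 7 mice below every 6m mouse.

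**Figure D2:**
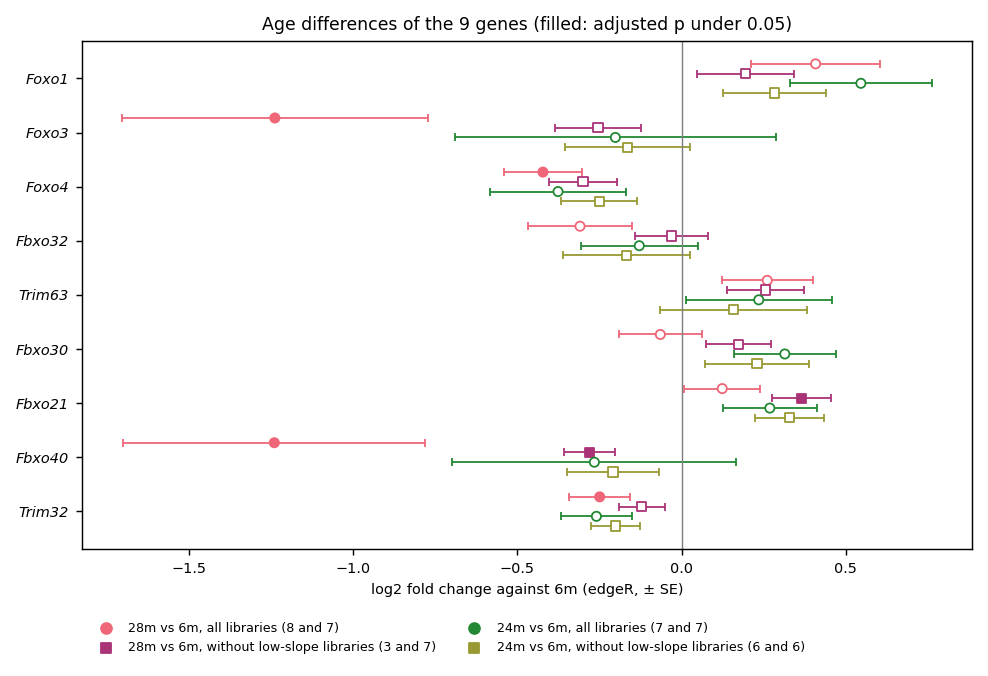
Log2 fold change against the 6m libraries of the same run (horizontal axis, edgeR, bars ± SE) for each gene at 28m and 24m, with all libraries (circles) and without the low-slope libraries (squares), filled where the adjusted p is under 0.05. Foxo3 and Fbxo40 move from -1.24 to -0.25 and -0.28 at 28m when the low-slope libraries are left out, and Fbxo21 moves from 0.12 to 0.37.

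Foxo3 and Fbxo40 followed the length slope of the library at every age. Foxo3 had 0.524 to 4.55 CPM in the 7 low-slope libraries and 6.90 to 15.2 in the other 22, and Fbxo40 had 11.8 to 83.3 and 137 to 242, so neither gene overlapped between the sets. The other 7 genes overlapped. Ubr4, a ligase gene outside the set, separated too, with 67.0 to 133 CPM in the low-slope libraries and 166 to 427 in the others. The share of all genes that separate in this way was not counted, so the separation is not read as particular to these genes. Over the 29 libraries the log2 CPM of Foxo3 and Fbxo40 had a Pearson r of 0.98, and over the 22 others it was 0.73. These libraries share runs and normalization, and the r is given as a description. The part of the length slope in the 28m values cannot be told apart from that of age, because the slopes of the age groups do not overlap.

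**Figure D3:**
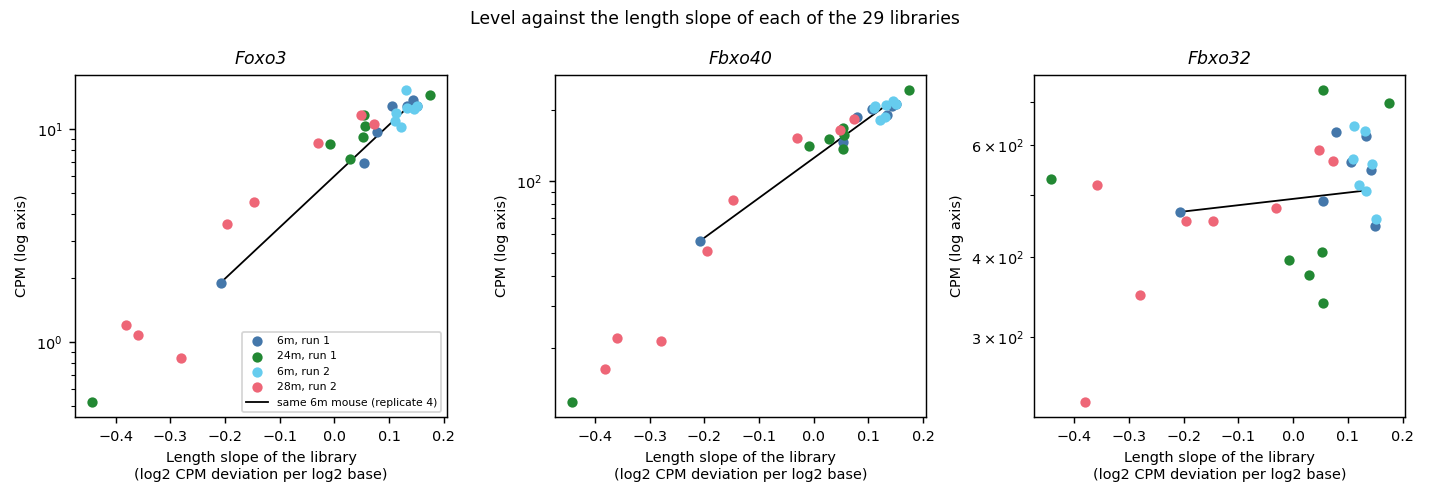
CPM (vertical log axes) of Foxo3, Fbxo40 and Fbxo32 against the length slope of the library (horizontal axis) in all 29 libraries, coloured by age and run, with a line joining the 2 libraries of 6m replicate 4. Foxo3 and Fbxo40 are low in every library below a slope of -0.1, and the line shows the same mouse at 1.90 and 12.5 CPM of Foxo3 and at 56.2 and 209.0 CPM of Fbxo40, while Fbxo32 shows no such separation.

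The libraries made anew from the same 7 mice at 6m show how far the genes vary with age held constant. No gene of the set was called between the runs, and neither was any of the 12884 genes tested with edgeR (0% called, 357 at an unadjusted p under 0.05, 0 called with the mouse as a block). In 6m replicate 4, Foxo3 was 2.67 and Fbxo40 1.89 higher on the log2 scale in the second run than in the first, from 36 counts to 245 and from 1064 to 4086. Of 13455 genes, 0.178% had a higher signed difference (second run minus first) than Foxo3 in this mouse and 0.929% a higher one than Fbxo40. The length slope of that mouse was -0.21 in the first run and 0.13 in the second, and the SD of the log2 differences over all genes was 0.617 against 0.237 to 0.282 in the other 6 mice. In those 6 mice Foxo3 differed by at most 0.56 and Fbxo40 by at most 0.32.

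Most of the other genes kept the level of the mouse between its libraries. The log2 CPM of Fbxo32 differed between the runs by at most 0.08 in the 6 mice and by 0.11 in replicate 4, and that of Foxo4 by at most 0.06 and by 0.10. Mice that were high in Fbxo32 in the first run, replicates 1 and 3 with 629 and 619 CPM, were again the highest in the second, with 643 and 629.8. Foxo1 was highest in replicate 3 both times, at 36.0 and 42.3 CPM. Trim63 and Fbxo21 shifted more in replicate 4 than in the other mice, by -0.41 and 0.37 against at most 0.09 and 0.20.

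**Figure D4:**
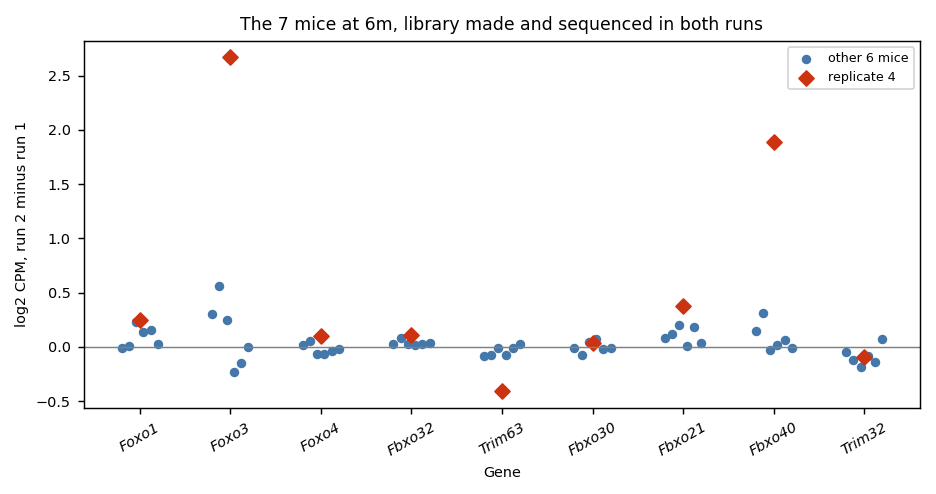
Log2 CPM in the second run minus the first (vertical axis) for each gene in the 7 mice at 6m, with replicate 4 as a red diamond and the other 6 mice as blue points. Replicate 4 stands at 2.67 for Foxo3 and 1.89 for Fbxo40, and all points of the other 6 mice lie between -0.23 and 0.56.

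Whether the changes at 28m and 24m differ was tested in 1 model of all 29 libraries. None of the 13455 genes tested was called with edgeR (0% called, 1611 at an unadjusted p under 0.05), and 0 with limma-voom and the mouse as a block. Without 24m replicate 4, a low-slope library, 1657 genes were called and none of the 9. The differences of the age effects were -1.03 ± 0.70 for Foxo3 (adjusted p = 0.519) and -0.97 ± 0.66 for Fbxo40 (adjusted p = 0.518) on the log2 scale, and -0.10 and -0.08 without the low-slope libraries. Fbxo30 had -0.37 ± 0.20 (adjusted p = 0.451), and the other 6 genes lay between -0.17 and 0.04. A call at 28m and none at 24m therefore does not show that the ages differ for these genes.

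The levels can be compared between genes per kilobase of exon. In the 6m libraries of the second run, Fbxo32 had 79.6 ± 9.49 CPM per kilobase (SD, n = 7) and Trim63 78.3 ± 9.74, which did not differ beyond their spread. Foxo4 followed with 60.4 ± 4.40 and Fbxo40 with 36.7 ± 2.40. The remaining genes were far lower, with Fbxo30 at 4.23 ± 0.141 and Trim32 at 4.11 ± 0.166 within their spread of each other, then Foxo1 at 3.35 ± 0.712 and Fbxo21 at 3.02 ± 0.290, also within it, and Foxo3 lowest at 1.62 ± 0.211. Foxo4 was thus the FoxO gene with the highest level in this muscle. At 28m Trim63 had 95.6 ± 23.9 and Fbxo32 65.4 ± 16.6 CPM per kilobase (n = 8), and Fbxo40 had 15.7 ± 12.7. In the 3 mice outside the low-slope set these levels were 93.5 ± 13.2, 78.01 ± 8.48 and 30.2 ± 2.81 CPM per kilobase.

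**Figure D5:**
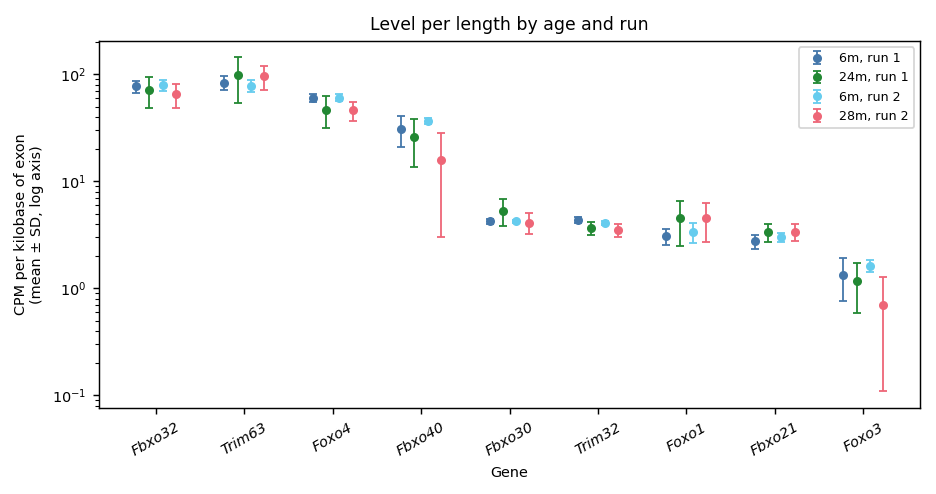
Mean CPM per kilobase of exon (vertical log axis, bars ± SD) of each gene by age and run (n = 7, 7, 7 and 8), ordered by the 6m libraries of the second run. Fbxo32, Trim63, Foxo4 and Fbxo40 lie well above the other 5 genes, and the bars of Foxo3 and Fbxo40 are widest at 28m.

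The genes around the FoxO factors were counted from lists. Of 15 regulators of FoxO activity, 1 was called higher and 6 lower at 28m (median -0.15), and 0 and 4 without the low-slope libraries. The acetyltransferases Ep300 and Crebbp had log2 fold changes of -1.18 ± 0.19 (edgeR adjusted p = 0.000486) and -0.71 ± 0.11 (adjusted p = 0.000486), and -0.72 and -0.54 without the low-slope libraries, with adjusted p of 0.00618 and 0.008. Ywhaz, a scaffold protein that binds phosphorylated FoxO, had 0.53 ± 0.12 (adjusted p = 0.00318), and 0.24 without those libraries (adjusted p = 0.0577). None of the 15 was called at 24m. The counts of this list and of the lists that follow stand beside the 47.3% of all genes called at 28m and the 20.3% called without the low-slope libraries, and nothing particular to a list is read from them.

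Of 19 genes known as FoxO targets, 6 were called higher and 5 lower at 28m (median 0.00), and 5 and 3 without the low-slope libraries. Gadd45a and Cdkn1a, which arrest the cell cycle and respond to denervation and damage, showed the largest rises. Gadd45a was 13.97 to 24.4 CPM at 6m and 40.5 to 172 at 28m, with no overlap, and its log2 fold change was 2.11 ± 0.30 (edgeR adjusted p = 0.000346), and 2.35 without the low-slope libraries (adjusted p = 0.00114). Groups that do not overlap were seen for 12.4% of all genes tested. Cdkn1a was 5.88 to 18.2 and 25.5 to 136 CPM, also with no overlap, a log2 fold change of 2.20 ± 0.37 (adjusted p = 0.000678), and 2.78 without those libraries (adjusted p = 0.00145). Irs2, the insulin receptor substrate that FoxO factors induce, fell by 1.51 on the log2 scale (adjusted p = 0.00622), with -0.67 and an adjusted p of 0.0628 without the low-slope libraries. Bcl6 fell by 0.65 (adjusted p = 0.0116), with -0.32 and 0.339 without them.

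The 3 mice at 24m that were high in Fbxo30 were also the highest of their group in Gadd45a. Replicates 4, 5 and 7 had 627, 282 and 91.1 CPM of Gadd45a, and the other 4 mice had 25.3 to 37.9. The same 3 mice had 15.001, 32.1 and 7.24 CPM of Chrng, the fetal acetylcholine receptor subunit that muscle expresses again after denervation, against at most 1.80 in the other 4. Replicate 4 is the low-slope library of the 24m group. Replicates 5 and 7 were the 2 highest in Fbxo32 and replicates 4 and 7 the 2 highest in Trim63. These mice were singled out after their values were seen, and no test was made.

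Of 15 autophagy genes, 6 were called higher and 2 lower at 28m (median 0.21), and 4 and 1 without the low-slope libraries, beside 47.3% and 20.3% of all genes called. Map1lc3a, which encodes an LC3 protein of the autophagosome membrane, rose by 1.04 ± 0.17 (edgeR adjusted p = 0.000561), and the lysosomal protease gene Ctsl rose by 0.66 ± 0.09 (adjusted p = 0.000218) on the log2 scale. The kinases that start autophagy, Ulk2 and Ulk1, had -0.77 ± 0.14 (adjusted p = 0.000826) and -0.69 ± 0.16 (adjusted p = 0.00328). Without the low-slope libraries, Ulk1 was at -0.36 with an adjusted p of 0.0799 and the other 3 kept their calls.

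Of 13 other muscle ubiquitin ligases tested, 0 were called higher and 6 lower (median -0.39), and 0 and 3 without the low-slope libraries (median -0.01), beside 22.9% and 9.77% of all genes called lower. Ubr4 had -0.95 ± 0.30 (edgeR adjusted p = 0.0159), which became -0.18 without the low-slope libraries (adjusted p = 0.231), and Asb2 had -0.74 ± 0.18 (adjusted p = 0.0038) and -0.78 (adjusted p = 0.0185). Of 13 genes of the SCF core and of ubiquitin-conjugating enzymes, 3 were called higher and 0 lower (median 0.15), among them Skp1a, the SCF adaptor that F-box proteins bind, at 0.65 ± 0.13 (adjusted p = 0.00181), and Nedd8, the modifier of cullins, at 0.66 ± 0.16 (adjusted p = 0.00396). Without the low-slope libraries they were at 0.28 (adjusted p = 0.0117) and 0.23 (adjusted p = 0.149).

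Of 11 genes that respond to loss of the nerve, 5 were called higher and 1 lower at 28m (median 0.92), and 6 and 1 without the low-slope libraries (median 1.59), beside 24.3% and 10.5% of all genes called higher. Chrng had a log2 fold change of 3.52 ± 0.81 (edgeR adjusted p = 0.00322), from at most 1.01 CPM at 6m to between 0.652 and 14.1 at 28m, with 0 counts in 1 of the 7 mice at 6m, so that its fold depends on the prior count. It was 4.41 without the low-slope libraries (adjusted p = 0.0045). Dach2, a repressor lost after denervation, had -0.80 ± 0.18 (adjusted p = 0.00277), and -0.45 without those libraries (adjusted p = 0.022). No gene of the 6 lists was called at 24m with edgeR.

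The counts of cell type markers called at 28m stand beside 47.3% of all genes called, or 20.3% without the low-slope libraries. The summed CPM of 10 endothelial markers was 321 to 500.1 at 28m and 561 to 641 at 6m, with 8 of the 10 called lower, or 4 without the low-slope libraries. Of 8 fibroblast markers 5 were called lower, or 4 without those libraries. Slow fibre markers had 4 of 8 called higher and 0 without them, and adipocyte markers 2 of 8 called higher and, without them, 3 lower. Of the 8 myofibre markers 3 were called higher and 1 lower, or 1 higher without those libraries. Among 5 immune markers tested 0 were called, or 1 higher without them. Among 8 Schwann cell markers 1 was called higher, or 0, and among 5 satellite cell markers tested 1 was called lower with and without them. The part of other cell types in the values of the FoxO and ligase genes was not tested.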

How the data were processed

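Poly-A RNA of the TA was sequenced as 75-base single-end reads on a NextSeq 550. STAR 2.5.4b (version from the submitters' processing notes) was used by the authors for alignment to mm10 and for counting reads per gene, and the counts were deposited unnormalized, so depth and transcript length act on them directly. The strand setting is not given in the sources used here. RNA input is smaller in the labels than in the methods. Group sizes at 24m and 28m are swapped in the series description, and those of the sample labels (7 and 8) were used. Mice sequenced in both runs were recognised from the names of the deposited count columns, in which a second library is marked as a repeat.

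The tests were run in R 4.3.3 with edgeR 4.0.16 (filterByExpr, TMM, quasi-likelihood F test, Benjamini-Hochberg adjustment over all genes tested, threshold 0.05). Log2 CPM used a prior count of 2. Standard errors were derived from the test. Replicates were numbered in accession order, and the same number marks the same mouse in the 6m groups. The deviations of the 2 libraries of a mouse from the group means had a correlation of 0.218 to 0.814 over the 7 mice. Different mice were not correlated with each other, so this does not test the pairing, which rests on the column names. Positions, exonic length and GC content came from a GENCODE annotation of GRCm38 (20202 genes matched by symbol, 1880 by synonym, 455 unmatched). The 9 genes, the lists and the tests were chosen with earlier results of these data known. All 9 genes are named, with Foxo6 and, per list, up to 2 called genes in each direction, ranked by log2 fold change at 28m. For each of the 9, the 3 best correlated genes are named. Some genes these rules pick are not reported here. Alternatives were DESeq2 1.42.0, limma-voom (limma 3.58.1), DESeq2 size factors, upper-quartile scaling, no filter, 6m libraries of the other run, removal of a trend with length and GC content, each library left out, and the mouse as a block. Omission of the low-slope libraries and the length slope as a covariate were added after the data were seen. The scripts were tested on simulated data. Figures were drawn with matplotlib 3.10.9.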

Additional observations from a re-analysis of the deposited data

Results flagged for a closer look

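In 36 groups of single values (9 genes in 4 groups), 3 samples stood apart from the rest of their group by Dixon's 95% limit, which chance passes in about 1 in 20 groups. Foxo1 was 36.0 CPM in 6m replicate 3 of the first run, with the next mouse at 27.8, and 42.3 CPM in the library of the same mouse in the second run, with the next at 31.03. Fbxo40 was 56.2 CPM in 6m replicate 4 of the first run, with the next mouse at 146, and this mouse had 209.0 CPM in the second run.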

How the results depend on the processing

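At 28m the 4 calls of the set were the same with DESeq2, limma-voom, DESeq2 size factors and upper-quartile scaling. With no filter Trim32 had an adjusted p of 0.0588, and with the length and GC trend removed Foxo1 (0.79, adjusted p = 0.0149) and Fbxo21 (0.31, adjusted p = 0.0127) were called besides, with 4870 of all genes. With the 6m libraries of the other run 2 genes of the set (Foxo4 and Trim32) and 2981 of all genes were called, with the length slope as a covariate 1 (Fbxo21) and 479, and without the low-slope libraries 2 (Fbxo21 and Fbxo40) and 2684. The causes were not tested. With the slope covariate at 28m, Foxo1 was -0.0112, Foxo3 0.56, Fbxo32 0.11, Fbxo30 0.30 and Fbxo40 0.53 on the log2 scale, and at 24m Foxo3 was 0.24 and Fbxo40 0.0149. None of these had an adjusted p under 0.05. The slopes of the 28m and the second-run 6m libraries do not overlap, so the 28m covariate values are extrapolated. Fbxo30 was 0.17 at 28m without the low-slope libraries. At 24m the calls over all genes were 215 with DESeq2, 46 with the other run, 78 with the slope covariate and 121 without the low-slope libraries, and 0 of the set in each.

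Leaving out 1 library gave 1 to 4 calls of the set and 5297 to 6688 of all genes at 28m. Foxo3 kept its call without 6m replicate 2 or 28m replicate 4, 6 or 8, Fbxo40 without 6m replicate 2 or 3 or 28m replicate 4, 6, 7 or 8, and Trim32 without 6m replicate 2 or 4 or 28m replicate 2, 3, 4, 6 or 8. Each lost it without any other library, and Foxo1 was called higher without 6m replicate 3 (0.52, adjusted p = 0.0428). Fbxo30 ranged from -0.139 to 0.0181. At 24m 4 to 30 genes were called, 30 without 24m replicate 4, and Foxo3 ranged from -0.39 to 0.00888. For the difference of the age effects, 0 to 1657 genes were called, 1657 without 24m replicate 4, and 0 of the set. The ranges were -0.33 to 0.11 for Foxo1, -0.163 to 0.0603 for Foxo4, -0.0506 to 0.252 for Trim63 and -0.0337 to 0.0837 for Trim32. Between the 6m runs they were -0.0315 to 0.0319 for Foxo4 and -0.0113 to 0.0316 for Fbxo30.

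Small differences changed sign elsewhere with no call. With the length and GC trend removed, the difference of the age effects was 0.13 for Foxo1, 0.00415 for Fbxo32, -0.0104 for Trim63, 0.0455 for Fbxo21 and -0.000175 for Trim32. Without the low-slope libraries it was 0.13 for Fbxo32 and 0.0265 for Fbxo21, and between the 6m runs Foxo4 was -0.00772 and Fbxo30 -0.00838. With the mouse as a block, Foxo4 was 0.0377 in the difference of the age effects, 0 genes of the set were called there and between the 6m runs, and the block changed no call. Foxo3 had 15 to 456 counts per library, the fewest in the library with the highest total count of all 29, and counting error is larger for its low values.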

Other observations

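The genes whose log2 CPM followed each gene of the set most closely over the 29 libraries are given as a description, since the libraries share runs, mice and the length slope. For Foxo3 these were Tubgcp6, 1110018G07Rik and Nup98 (Pearson r = 0.99 each, and 0.85, 0.80 and 0.85 over the 22 libraries outside the low-slope set). For Fbxo40 they were Zcchc6, Pds5a and Usp9x (0.99 each, and 0.88, 0.75 and 0.86), and for Foxo4 Abcb4 and Ppm1a (0.98 and 0.96, and 0.95 and 0.97). For Fbxo21 they were Tmco4 and the circadian clock genes Cry2 and Per1 (0.84, 0.84 and 0.83, and 0.80, 0.94 and 0.85 over the 22 libraries). For Fbxo30 they were Mdm2, Nfe2l1 and Stat5a (0.89, 0.82 and 0.81, and 0.84, 0.67 and 0.73 over the 22). Those of Fbxo32 were Pdpk1, Kpna3 and Noc3l (0.85, 0.78 and 0.77, and 0.76, 0.54 and 0.60). Trim63 had Morf4l2, Usp16 and Rnmt (0.81, 0.80 and 0.79, and 0.67, 0.67 and 0.64). Trim32 had Sec23a, Vps54 and Eif4g2 (0.92, 0.90 and 0.90, and 0.73, 0.71 and 0.77). Foxo1 had Zfp954, Rlim and Erich1 (0.83, 0.81 and 0.80, and 0.85, 0.56 and 0.83). Fbxo32 and Trim63 had an r of 0.43 with each other over the 29 libraries and 0.58 over the 22, and Foxo4 and Trim32 had 0.78 and 0.72.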
